A study of Mus musculus with 4 samples.

Results

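The genes described here are 8 general monocyte lineage genes, chosen by name: Csf1r, Lyz2, Lyz1, Cd14, Cd68, Adgre1, F13a1 and Vcan. The choice was made with earlier results of these data known. All 8 were matched by symbol to the NCBI Gene numbers of the deposited files, which hold 17723 genes in any library. They were followed through natural killer (NK) cells sorted from the spleen of C57BL/6J mice, 6 to 8 weeks old when leukaemia cells were transplanted. NK cells are innate lymphocytes, and the sort divided them by surface DNAM-1, an activating receptor. The DNAM-1+ and DNAM-1- cells came from normal spleen (day 0) or from spleen at day 17 after transfer of GFP+ MLL-AF9 acute myeloid leukaemia (AML) cells without irradiation. Each of the 4 combinations of subset and spleen has 1 library. Where 4 values stand in a row below, normal spleen comes first and AML spleen second, and within each spleen DNAM-1+ comes before DNAM-1-. The labels do not give the gates beside DNAM-1, the purity of the sort or how many mice each library came from. With 1 library a group, a difference between any 2 of them stands without replicates.

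Monocytes and macrophages arise from myeloid progenitors under the growth factor CSF1, which acts through the receptor tyrosine kinase CSF1R on their surface. In mouse spleen the lineage includes classical monocytes, patrolling non-classical monocytes and resident macrophages. The members cover its functions: growth factor sensing (Csf1r), bacterial killing (the lysozymes Lyz1 and Lyz2), sensing of lipopolysaccharide (Cd14), endosomes and lysosomes (Cd68), adhesion (Adgre1, the gene of F4/80), coagulation (F13a1) and extracellular matrix (Vcan). NK cells are of the lymphoid lineage and are not defined by any of these genes.

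The sort itself shows in Cd226, the gene of DNAM-1, at 38.6, 0.45, 36.1 and 0.58 FPKM (fragments per kilobase of transcript per 1e+06 mapped fragments). The NK receptor gene Ncr1 was at 573, 383, 597 and 423 FPKM, and the leukocyte gene Ptprc at 723, 709, 732 and 755. The libraries list 15460 to 16161 genes above 0 and were estimated to hold 8900000 to 9300000 fragments each. All 10 markers of NK cells were present at 5 FPKM or more in a library. B cell markers summed to 199, 1000.4, 227 and 977 FPKM, so they moved with the subset as the members did, and their part in the members' values was not tested. In these bulk libraries, fewer cells of a type and less RNA per cell cannot be told apart.

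The 2 lysozyme genes are near-identical copies, so their sequences are shown first. Lyz1 and Lyz2 have coding sequences of 447 bases each, which differ at 22 bases and are 95.1% identical (GENCODE M21 transcripts, matched through their RefSeq accessions). Coding bases 1 to 150, 5′ to 3′, hold 14 of the differences, and capitals mark the bases that differ between the genes.
Lyz1: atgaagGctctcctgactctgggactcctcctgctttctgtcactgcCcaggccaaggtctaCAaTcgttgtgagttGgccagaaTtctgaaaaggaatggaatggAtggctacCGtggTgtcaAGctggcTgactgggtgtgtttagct
Lyz2: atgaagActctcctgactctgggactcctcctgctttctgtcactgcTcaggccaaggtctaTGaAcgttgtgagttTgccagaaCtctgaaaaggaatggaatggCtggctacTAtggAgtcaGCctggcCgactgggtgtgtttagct
Of the 1214 windows of 50 bases in the Lyz1 transcript, 195 (16.1%) also occur in the Lyz2 transcript. Reads from such stretches fit both genes, so the division between Lyz1 and Lyz2, and above all the lower value of Lyz1, is uncertain.

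Promoters are shown as a description of the members, and their part in the subset differences was not tested. The RefSeq promoter table (GRCm38.p6) held 5 of the 8 members, in 6 promoters; Csf1r, Cd14 and Adgre1 were not matched. In the 250 bases before the start site, on both strands, 2 motifs of factors known from myeloid cells were searched: the PU box GAGGAA of PU.1, and a C/EBP-like motif, TTNNGNAA. Below, capitals mark a match to either motif, on either strand, in the promoters of the 3 matched members of the highest level. For Lyz2 the 201 bases shown end where its GENCODE M21 transcript begins, since that transcript starts 49 bases before the RefSeq start site; its match crosses that end and is not in capitals.
Lyz2, chr10:117282322-117282522, minus strand: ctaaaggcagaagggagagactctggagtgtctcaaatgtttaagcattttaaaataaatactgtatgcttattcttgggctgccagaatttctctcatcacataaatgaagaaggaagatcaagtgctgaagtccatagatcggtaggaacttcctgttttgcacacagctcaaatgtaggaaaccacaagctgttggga
Lyz1, chr10:117292869-117293118, minus strand: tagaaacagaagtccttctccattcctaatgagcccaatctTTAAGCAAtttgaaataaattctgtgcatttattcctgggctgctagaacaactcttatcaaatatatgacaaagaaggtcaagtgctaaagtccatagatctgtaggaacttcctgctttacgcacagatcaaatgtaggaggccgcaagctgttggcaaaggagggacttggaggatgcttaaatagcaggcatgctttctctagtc
Cd68, chr11:69666171-69666420, minus strand: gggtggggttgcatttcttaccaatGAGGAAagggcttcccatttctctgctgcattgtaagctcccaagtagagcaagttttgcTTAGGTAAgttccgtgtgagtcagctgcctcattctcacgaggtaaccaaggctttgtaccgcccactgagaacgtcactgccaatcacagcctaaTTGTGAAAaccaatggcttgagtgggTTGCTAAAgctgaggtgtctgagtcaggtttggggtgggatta
The PU box occurred in Cd68, its first base 225 bases before the start site, and in 1 of the 2 promoters of F13a1, at 66 bases. The C/EBP-like motif occurred 3 times in Cd68 and 1 time each in Lyz2 (55 bases before the RefSeq start site), Lyz1 (209 bases) and F13a1 (33 bases). Neither motif occurred in Vcan. Of 32851 promoters, 23.3% hold the PU box and 36.8% the C/EBP-like motif in the same window. A match is a description of these letters, not of a bound site.

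Most members were far higher in DNAM-1- than in DNAM-1+ cells of both spleens. Lyz2, which encodes the lysozyme of monocytes and macrophages, was the most abundant member, at 29.3, 239, 41.9 and 254 FPKM. Csf1r was at 7.31, 59.7, 9.84 and 57.6 FPKM. In both genes the DNAM-1- libraries stood together well above the DNAM-1+ libraries, with no overlap. Cd68, which encodes a glycoprotein of endosomes and lysosomes, was at 12.6, 42.3, 10.8 and 40.7 FPKM, the same order with a smaller gap. Adgre1, an adhesion G protein-coupled receptor gene and the classical macrophage surface marker, was at 1.16, 8.17, 1.75 and 8.94 FPKM. Lyz1, known from Paneth cells as well, was at 0.76, 9.16, 2.06 and 7.64 FPKM. The levels of both were low in DNAM-1+ cells and without overlap between the subsets.

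The other 3 members were near the lower limit of detection. Cd14, the co-receptor gene for lipopolysaccharide, was at 0.39, 1.01, 0.33 and 1.6 FPKM, higher in each DNAM-1- library. F13a1, the coagulation factor XIII A chain gene, known from classical monocytes, macrophages and platelets, was at 0.17, 0.38, 0.65 and 0.83 FPKM. For F13a1 the order followed the spleen before the subset: both AML libraries lay above both normal ones, so the subsets overlapped. Vcan, the gene of the matrix proteoglycan versican, known from classical monocytes, was at 0.03, 0.2, 0.05 and 0.09 FPKM. From transcript length and the estimated depth, these 3 genes rest on about 3 to 30 reads a library, against 260 to 2035 for Csf1r and 347 to 2948 for Lyz2.

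**Figure D1:**
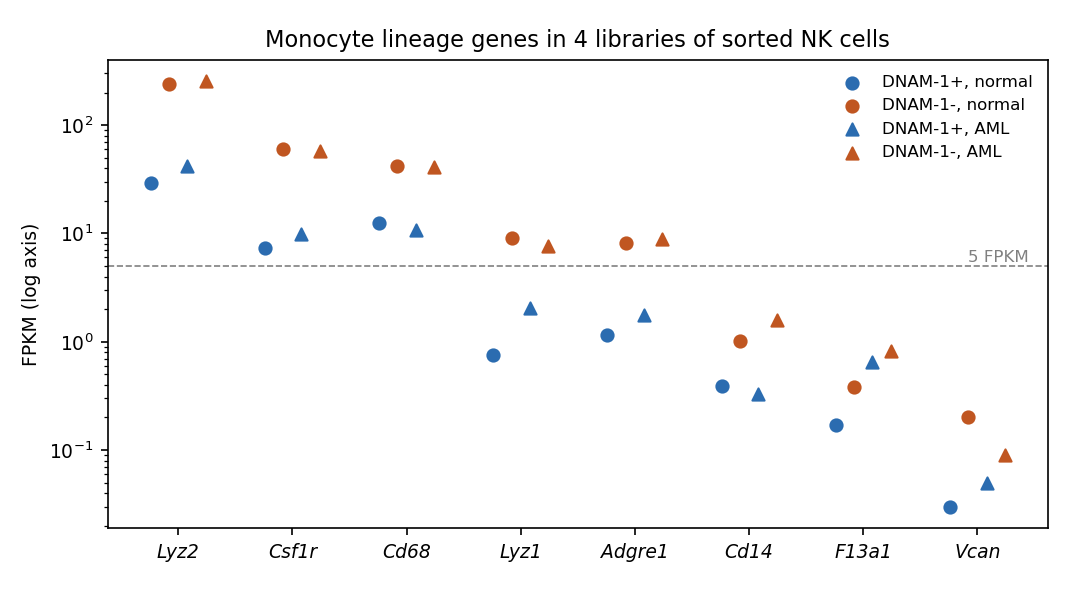
Deposited FPKM (vertical, log axis) of the 8 members (horizontal, ordered by their highest level) in each library. Blue marks DNAM-1+ and orange DNAM-1- cells, circles normal and triangles AML spleen, 1 point a library with no error bar since groups hold 1 library; the dashed line is 5 FPKM. In 7 of 8 genes both orange points lie above both blue points; in F13a1 they do not.

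Across all 8 members, 7 had both DNAM-1- libraries above both DNAM-1+ libraries, and F13a1 did not. Of all 17723 listed genes, 24.1% were ordered this way, and of the 9074 genes at 5 FPKM or more, 25.2%. At a floor of 5 FPKM in either library, 5 of the 8 members could be counted, and all 5 had a log2 ratio of -1 or below in both spleens. The background was 3.97% of 8915 genes in normal spleen (1.28% were as much higher) and 3.19% of 8839 in AML spleen (0.894% higher). Lyz1 and Adgre1 passed the floor only through the DNAM-1- libraries, so the count of 5 over those that passed is a description. The ratios of these counts, like all log2 values below, were taken after 1 FPKM was added to each value, so the differences of low genes are understated. The median log2 ratio of DNAM-1+ to DNAM-1- was -1.88 over all 8 members in normal spleen and -1.66 in AML spleen. Over the 6 members that reached 1 FPKM somewhere it was -2.31 and -1.84, against medians of 0.00 in both spleens over the 12054 genes at that level.

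The mean subset difference over both spleens was tested with limma, fitted to the 9074 genes that reached 5 FPKM in a library, with subset and spleen as additive terms. Of the 8 members, 5 entered the fit, all 5 fell on the DNAM-1+ side (threshold: adjusted p of 0.05) and 0 rose, beside 8.38% of all genes that fell and 7.35% that rose. Csf1r, Lyz2 and Cd68 were above the floor in every library, and Lyz1 and Adgre1 entered through their high DNAM-1- values. The members were chosen with earlier results of these data known, so all 5 calls are a description and no support. On the log2 scale Lyz2 fell by 2.78 (SE 0.10, limma adjusted p = 3.09e-05). Csf1r fell by 2.65 (SE 0.11, limma adjusted p = 3.72e-05) and Cd68 by 1.74 (SE 0.07, limma adjusted p = 3.75e-05). The fitted log2 differences were -1.97 for Adgre1 (SE 0.19) and -2.01 for Lyz1 (SE 0.28). Each of the 5 was lower in 2 of 2 spleens. Cd14, F13a1 and Vcan lay below the floor and were not tested. The fit has 1 residual degree of freedom, which is the change of the subset difference between the spleens. The 2 spleens thus stand in as repeats of the subset difference. The spread is borrowed across genes and comes from these libraries only, so SE and p-values measure no spread between animals of a group. When every listed gene was fitted with no floor, limma called no gene: 0 of the 8 members passed (0% of 17723 genes fell), 6 of 8 had an unadjusted p below 0.05 (19.3% of all genes had), and adjusted p-values of the 5 members lay between 0.117 and 0.164.

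Whether the members share 1 ratio was read from the fold of DNAM-1- over DNAM-1+ FPKM, without a pseudocount, with a 95% counting interval. The intervals are exact (Clopper-Pearson), from the estimated reads, and cover the counting of reads but no spread between animals. In normal spleen the fold was 8.17 for Lyz2 (7.31 to 9.17) and 8.17 for Csf1r (7.18 to 9.34). Adgre1 had a fold of 7.04 (4.86 to 10.2) and Lyz1 of 12.1 (5.88 to 26.1). These 4 genes therefore had intervals that overlap one another. Cd68 had a fold of 3.36 (2.78 to 4.10), and its interval lay below those of Csf1r, Lyz2, Lyz1 and Adgre1. The folds of Cd14, 2.59 (0.88 to 7.74), F13a1, 2.24 (0.80 to 7.26), and Vcan, 6.67 (2.30 to 40.0), have intervals too wide to place them.

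In AML spleen the folds of Lyz2 and Csf1r were smaller, and Cd68 again lay below them. Lyz2 had a fold of 6.06 (5.50 to 6.68) and Csf1r of 5.85 (5.22 to 6.57), both below their intervals in normal spleen. Adgre1 had a fold of 5.11 (3.81 to 7.10) and Lyz1 of 3.71 (2.33 to 6.21). Cd68 had a fold of 3.76 (3.05 to 4.63), below the intervals of Lyz2 and Csf1r and overlapping those of Adgre1 and Lyz1. Cd14 had a fold of 4.85 (1.73 to 15.7). F13a1 had a fold of 1.28 (0.74 to 2.38), with an interval that holds 1 and lies below that of Cd68, and Vcan of 1.80 (0.55 to 5.64). The folds thus ran from 2.24 to 12.1 in normal and from 1.28 to 6.06 in AML spleen. A difference of a fold between the spleens has no residual degrees of freedom in this design and was not tested.

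**Figure D2:**
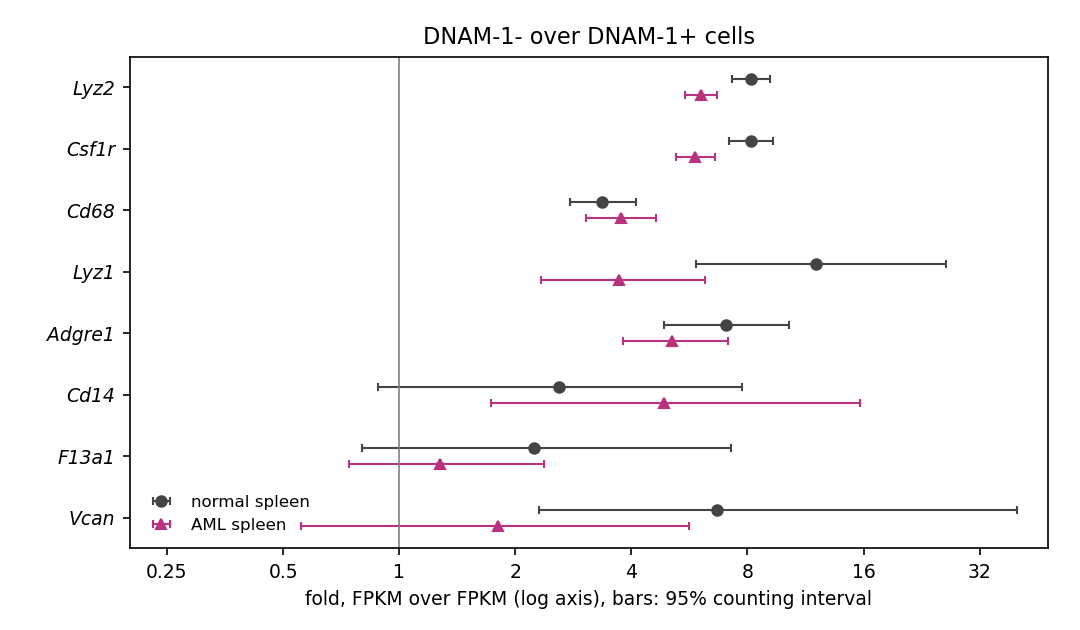
Fold of DNAM-1- over DNAM-1+ FPKM (horizontal, log axis) for each member, in normal (grey circles) and AML spleen (magenta triangles). Bars are 95% counting intervals from estimated reads and the grey line is a fold of 1; Cd68 lies at 3.36 and 3.76, left of Lyz2 and Csf1r, which lie at 8.17 in normal spleen.

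Each member was also expressed as a percent of Lyz2 FPKM in the same library. Csf1r was at 25%, 25%, 23.5% and 22.7% of Lyz2, a range of 1.1 times over the 4 libraries. Adgre1 was at 3.96%, 3.42%, 4.18% and 3.52%, a range of 1.22 times. Both ratios were thus nearly level while the genes themselves moved several-fold. Cd68 was at 43.1%, 17.7%, 25.8% and 16% of Lyz2, higher in both DNAM-1+ libraries and highest in the normal one, a range of 2.69 times. Lyz1 was at 2.60%, 3.83%, 4.92% and 3.01%, with the 2 extremes in the DNAM-1+ libraries, where it rests on about 9 and 23 reads. F13a1 moved furthest against Lyz2, between 0.159% in DNAM-1- normal and 1.55% in DNAM-1+ AML cells. The summed level of the 8 members was 51.7, 360.1, 67.4 and 371 FPKM, of which Lyz2 made up 56.6% to 68.4%.

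**Figure D3:**
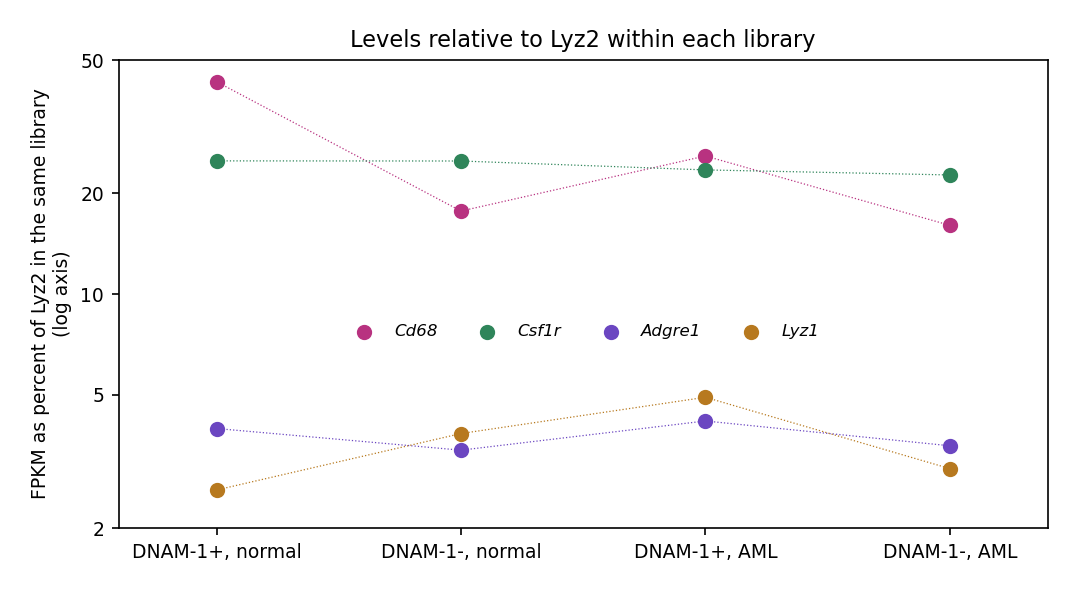
FPKM of 4 members as a percent of Lyz2 in the same library (vertical, log axis) in the 4 libraries (horizontal). Each point is 1 library, and dotted lines only join the points of a gene; Csf1r stays between 22.7% and 25% and Cd68 ranges from 16% to 43.1%.

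The comparison of AML with normal spleen gave small differences for the abundant members. In DNAM-1+ cells Lyz2 was 1.43 times its normal level (interval 1.25 to 1.65) and Csf1r 1.35 times (1.15 to 1.59). In DNAM-1- cells Lyz2 was at 1.06 times (1.01 to 1.12) and Csf1r at 0.96 times (0.91 to 1.03). Both genes were thus further from their normal level in DNAM-1+ than in DNAM-1- cells, a difference that was not tested. Cd68 was at 0.86 times (0.67 to 1.11) and 0.96 times (0.84 to 1.1), and Adgre1 at 1.51 (0.94 to 2.33) and 1.09 times (0.91 to 1.31); all 4 intervals hold 1. Lyz1 was at 2.71 (1.15 to 6.34) in DNAM-1+ and 0.83 times (0.62 to 1.12) in DNAM-1- cells.

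F13a1 was the member with a higher level in AML spleen in both subsets by intervals that exclude 1, apart from Lyz2. It was at 3.82 times its normal level (1.53 to 11.6) in DNAM-1+ and 2.18 times (1.14 to 4.71) in DNAM-1- cells, on about 6 to 30 reads. Cd14 was at 0.85 (0.20 to 3.31) and 1.58 times (0.79 to 3.38), and Vcan at 1.67 (0.43 to 12.5) and 0.45 times (0.19 to 0.98). No member that reached the floor of 5 FPKM had a log2 difference of 1 or more in size in AML spleen: 0 of 3 in DNAM-1+ cells (background 0.311% higher and 0.346% lower) and 0 of 5 in DNAM-1- cells (0.193% and 0.397%). limma called 0 of the 5 tested members for AML against normal (background 0.0661% higher and 0.287% lower), and 1 of the 5, Lyz2, had an unadjusted p below 0.05, as had 12.5% of all genes tested. Its log2 difference was 0.29 (SE 0.10, limma adjusted p = 0.343, higher in 2 of 2 subsets), with adjusted p-values from 0.196 to 0.7 under the alternatives. Over all 8 members the median log2 difference was 0.37 for DNAM-1+ and 0.02 for DNAM-1- cells, against 0.01 and -0.01 over the genes at 1 FPKM or more.

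Markers of leukaemia and myeloid progenitor cells are given beside the F13a1 values. Of 11 such markers, 2 reached the floor, and limma called neither for AML. Kit was at 17.9, 7.86, 25.3 and 9.78 FPKM, higher in AML spleen in both subsets, and Myb at 16.1, 14.9, 12.4 and 9.97, lower in both. The other 9 were below the floor. All of them except Hoxa10 were higher in AML spleen in both subsets, at low levels. The share of all genes ordered this way was not computed and these genes have no counting intervals, so this is a description. The granule enzyme gene Mpo was at 0.25, 0.26, 1.58 and 2.29 FPKM and Ctsg at 0.11, 0.11, 1.1 and 1.68. Hoxa9 was at 0.04, 0.04, 0.32 and 0.18, and Hoxa10 was listed at 0 in the DNAM-1- normal and DNAM-1+ AML libraries. The summed level of the list was 36.2 and 24.7 FPKM in normal and 44.4 and 27.6 in AML spleen, most of it Kit and Myb. Of 10 platelet markers, a cell type that is also known for F13a1, 1 reached the floor: Itgb3, at 8.26, 3.08, 8.81 and 3.02 FPKM. Pf4 was listed in 1 library, at 0.18 FPKM. The list summed to 12.9, 8, 14.9 and 7.95 FPKM. The part of either cell type in the F13a1 values was not tested.

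**Figure D4:**
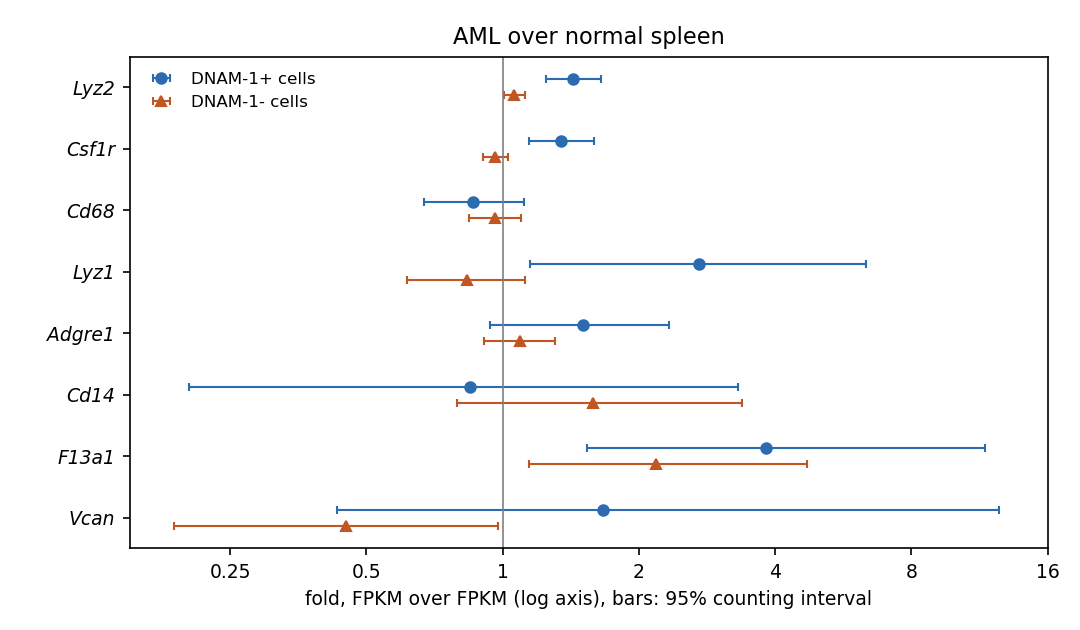
Fold of AML over normal FPKM (horizontal, log axis) for each member in DNAM-1+ (blue circles) and DNAM-1- cells (orange triangles). Bars are 95% counting intervals from estimated reads and the grey line is a fold of 1; F13a1 lies at 3.82 and 2.18, and Lyz2 at 1.43 and 1.06.

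The ligands and receptors around Csf1r did not all follow its order. Medians of log2 ratios given from here on for a list are over its genes that reached 1 FPKM in a library. Some tested genes of these lists reached 5 FPKM only in the subset where they were higher, as Csf3r did. As for Lyz1 and Adgre1, the counts that fell or rose in a list are therefore a description. Csf1, its ligand gene, was at 0.77, 1.06, 0.49 and 1.05 FPKM, and Il34, the alternative ligand, was listed only in DNAM-1- AML cells, at 0.06. Among 10 colony stimulating factor ligands and receptors, 4 were tested, of which 3 fell and 1 rose in DNAM-1+ cells (limma). Csf2ra, the GM-CSF receptor alpha chain gene, was at 8.65, 35.4, 7.95 and 25.7 FPKM. Csf3r, the G-CSF receptor gene, was at 3.25, 15.2, 2.84 and 12.2. The stem cell factor receptor gene Kit, whose values stand above, rose. The median log2 ratio was -1.08 and -0.87 in the 2 spleens, over 8 of the 10 genes.

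Of 15 monocyte transcription factor genes, 8 were tested, and 6 fell and 1 rose in DNAM-1+ cells. Spi1, the gene of PU.1, which is known to activate Csf1r, was at 9.57, 53.9, 9.24 and 51 FPKM, folds of 5.63 and 5.52. The most abundant factors, Irf8 (185, 248, 186 and 238 FPKM), Nr4a1 (65.1, 167, 72.5 and 127) and Zeb2 (38.5, 47.4, 44.6 and 54.9), had smaller folds and are known from NK or B cells as well. Klf4, a factor of monocyte differentiation, was at 3.71, 20.6, 5.79 and 21 FPKM. The list's medians were -0.98 and -0.58.

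The partners of Cd14 did not all follow it. Of 17 genes of the CD14 and Toll-like receptor pathway, 10 were tested, 7 fell and 0 rose in DNAM-1+ cells, with median log2 ratios of -1.68 and -1.37. Tlr1, Tlr7, Tlr9, Tlr13 and Irak3, which fell, passed the floor only through the DNAM-1- libraries. Tlr4 and Ly96, which form the lipopolysaccharide receptor that CD14 serves, were at 2.02, 3.03, 2.31 and 2.69 and at 1.34, 1.56, 2.65 and 1.71 FPKM. Tlr4 was higher in both DNAM-1- libraries, and Ly96 was higher in DNAM-1+ than in DNAM-1- cells of AML spleen. Ly86 (8.77, 49, 11.7 and 45.1 FPKM) and Cd180 (5.77, 34, 7.5 and 34.2), whose products form a Toll-like receptor complex also known from B cells, were lower in DNAM-1+ cells and fell in the test. The shared adaptor gene Myd88 was at 33.9, 32, 32.2 and 31.3 FPKM and was not called.

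Other genes of the lysosome and of scavenger uptake are given beside Cd68. Of 16 lysosome membrane and scavenger receptor genes, 9 were tested, 5 fell and 0 rose, with medians of -0.54 and -0.34. Psap, which encodes the saposin precursor, was at 203.7, 379.6, 222 and 357 FPKM, Lamp1 at 74.4, 109, 78.5 and 99.7, and Npc2 at 44.6, 48.5, 45 and 49.9. These housekeeping lysosomal genes are expressed by most cells, and Npc2 was not called. The scavenger receptor gene Cd36 was at 0.58, 5.87, 1.17 and 7.66 FPKM, folds of 10.1 and 6.55, above the 3.36 and 3.76 of Cd68.

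Among 8 adhesion G protein-coupled receptor genes of leukocytes, the relatives of Adgre1, 4 were tested, 1 fell and 2 rose in DNAM-1+ cells. Adgre4 fell, at 2.44, 24.1, 3 and 23.9 FPKM. Adgre5, the gene of the broadly expressed CD97, was at 338, 388, 403 and 402 FPKM and was not called. Adgrg5 rose, at 16, 5.01, 20.2 and 5.98 FPKM. Adgre1 and Adgre4 were thus ordered alike, and Adgrg5 in the opposite way.

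Relatives of F13a1, Vcan and the lysozymes were mostly unlisted or below the floor. Of 17 transglutaminase and coagulation factor genes 1 was tested: Tgm2 fell, at 2.85, 16.1, 3.01 and 13.5 FPKM. F10 was at 1.7, 4.25, 1.5 and 3.17, Tfpi at 1.04, 1.61, 0.85 and 0.67, and F13b, the partner subunit of F13a1, was listed in no library. Of 14 hyaluronan-binding and proteoglycan genes 5 were tested, and 2 fell and 0 rose. Srgn, the serglycin gene of cytotoxic granules, was at 294.6, 315, 330.03 and 306 FPKM, Cd44 at 56.1, 52.5, 59.4 and 49.8, and Sdc3, which fell, at 3.22, 12.4, 3.41 and 8.14. Of 5 other lysozyme family genes only Spaca5 was listed, at 0.21 FPKM in both DNAM-1+ libraries.

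Markers of other myeloid cells are given side by side with the members, as counts and medians with no test between lists. Of 13 non-classical monocyte genes 13 were tested, 10 fell and 0 rose in DNAM-1+ cells, with median log2 ratios of -2.12 and -2.0 in the 2 spleens. The most abundant, Spn (382, 371, 428 and 424 FPKM) and Itgax (226, 243, 229 and 224), are known from NK cells too and were level, and Nr4a1 has been given above. Fcgr4 (5.45, 51.8, 3.74 and 36.5 FPKM) and Treml4 (3.31, 29.9, 3.54 and 30.5), which mark non-classical monocytes, had folds of 9.50 and 9.02 in normal and 9.75 and 8.60 in AML spleen. Both genes lay above Lyz2, which had 8.17 and 6.06. In normal spleen the folds of this list ran from 0.82 for Pglyrp1 to 13.5 for Ear2. Of 12 classical monocyte genes 9 were tested, 6 fell and 2 rose, with medians of -0.91 and -0.70. Its abundant genes Ly6c2 (137, 159, 188 and 192 FPKM) and Ccr2 (122, 98.3, 113 and 86.6) are known from lymphocytes as well; Ly6c2 was not called, and Ccr2 rose in DNAM-1+ cells.

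Of 16 tissue macrophage genes 9 were tested, 9 fell and 0 rose, with medians of -1.19 and -0.89 over 14 of the genes. Among those that fell, C1qa, Fabp4, Vcam1, Spic and Axl passed the floor only through the DNAM-1- libraries. The apolipoprotein gene Apoe was at 38.8, 334, 43 and 266 FPKM, the haem oxygenase gene Hmox1 at 6.34, 20.2, 7.37 and 18.5, and the fatty acid binding protein gene Fabp4 at 1.22, 17.4, 0.53 and 20.1. The folds of Apoe were 8.60 and 6.20 and those of Hmox1 3.19 and 2.51. Of 12 neutrophil genes 8 were tested, 7 fell and 0 rose, with medians of -0.72 and -0.82. S100a9 was at 42.9, 68.3, 23.7 and 51.5 FPKM, Cxcr2 at 45.5, 41.3, 40.4 and 43.7 and S100a8 at 18.9, 36.1, 15.2 and 26.2. Neutrophils also express Lyz2. The folds of S100a8 were 1.91 and 1.73 and those of S100a9 1.59 and 2.17, where Lyz2 had 8.17 and 6.06; Csf3r, which is on this list too, had 4.69 and 4.28. The part of each of these cell types in the members' levels was not tested.

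**Figure D5:**
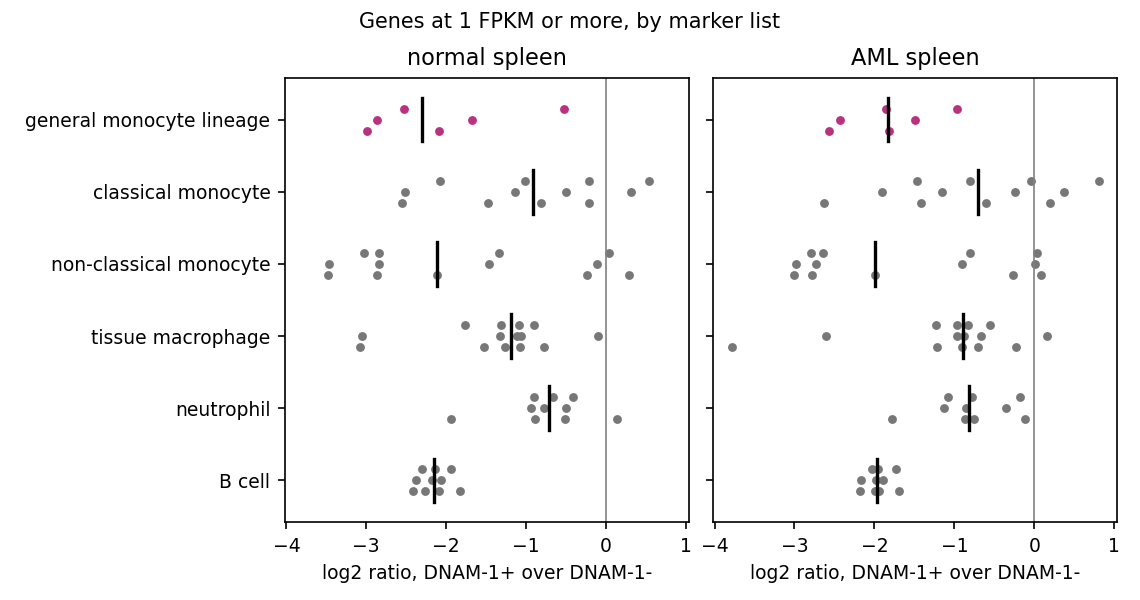
Log2 ratio of DNAM-1+ to DNAM-1- (horizontal, after adding 1 FPKM) of the genes of 6 marker lists that reached 1 FPKM somewhere, in normal (left) and AML spleen (right). Each point is a gene, magenta for the members, vertical offsets only separate points, and black bars are list medians; the members lie from -2.99 to -0.53 in normal spleen.

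Markers of lymphoid and other cells stand beside these as follows. All 10 B cell genes were tested and fell in DNAM-1+ cells, with medians of -2.16 and -1.97, near those of the members. The folds of Cd79a were 5.42 and 4.54 and those of Ms4a1 4.43 and 4.71. Of 8 plasma cell genes 5 were tested, 4 fell and 0 rose. Of 12 dendritic cell genes 4 were tested, 3 fell and 0 rose, among them Cd209a at 1.03, 3.9, 3.88 and 10.3 FPKM. Of 10 T cell genes 6 were tested, 5 rose and 0 fell. Of 10 NK cell genes 10 were tested, 3 rose and 0 fell. One gene each rose among the mast cell and basophil markers and the platelet markers, and erythroid markers had 1 in each direction.

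Genes with the most similar pattern were ranked by the Euclidean distance between centred log2 profiles over the 4 libraries, among 8503 protein-coding genes. Nearest to the median profile of the 5 members at 5 FPKM or more were Cd180 (distance 0.16), Spib (0.16), Ly6d (0.16), Cd79a (0.17), Mpeg1 (0.18), Il6ra (0.18), Sirpa (0.19) and H2-Aa (0.20). Of these, Cd79a is on the B cell list and Cd180 is also known from B cells, so nearness was not particular to monocyte genes. Spib was at 9.37, 54.1, 11.6 and 51.3 FPKM and Mpeg1 at 7.62, 45, 10.2 and 40.2. The nearest single genes were Clec4a1 for Csf1r, Ceacam1 for Lyz2, Fam43a for Lyz1, Plekho1 for Cd68 and H2-Eb1 for Adgre1. Clec4a1 was at 3.22, 31.3, 4.79 and 27.4 FPKM, and Plekho1 at 16.1, 59.1, 14.6 and 52.3. With 4 libraries such a distance is a description of level patterns alone.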

How the data were processed

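RNA of sorted spleen NK cells was made into libraries with BGISEQ-500 protocols, per the labels' protocols, with 1 library for each of 4 groups taken from the source labels. Bowtie2 2.2.5 and RSEM are listed, with no role, per the submitters' processing notes; the genome build is not given in the sources used here. Each deposited file gives FPKM values by gene number, per the file headers, and genes not listed were taken as 0. Of 17723 gene numbers, 17668 matched a RefSeq symbol (GRCm38.p6). Beyond the RefSeq promoters, gene coordinates came only from GENCODE M21, for transcript starts and for the coding parts of Lyz1 and Lyz2.

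Members and gene lists were chosen with earlier results of these data known. Depth was estimated from genes with 1 RefSeq transcript of 600 to 1800 bases: up to 4 reads, 69.9% to 73.2% of values lay within 0.1 read of a whole number, with 40 bases taken off each length. Reads of a member use its longest transcript, so those of Vcan are the least certain. limma 3.58.1 (R 4.3.3) with mean-variance trend was fitted to log2(FPKM + 1), with 0.05 as the threshold of the Benjamini-Hochberg adjusted p, and tested on simulated data. Alternatives were other pseudocounts, scalings, floors, gene sets and no trend. The 3 genes of the highest level in each pathway and myeloid list are named, except 1 that is not reported here; the other lists are given mostly by counts. Further genes (among them Csf1, Il34, Spi1, Klf4, Tlr4, Ly96, Cd36, F13b, Fcgr4, Treml4, Mpo, Ctsg, Hoxa9, Hoxa10, Pf4 and Cd209a) were named after their values were seen.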

Additional observations from a re-analysis of the deposited data

Results flagged for a closer look

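In 4 members the single AML library lay on opposite sides of the normal one in the 2 subsets. The AML-to-normal log2 ratio in DNAM-1+ cells minus that in DNAM-1- cells was 0.43 for Csf1r, 1.03 for Lyz1, -0.43 for Cd14 and 0.17 for Vcan. For each of the 4 genes, the counting interval of AML over normal holds 1 in at least 1 of the 2 subsets. Each difference rests on 1 library a group and was not tested. The share of all genes with this pattern was not computed, so the count of 4 is a description and no result about the members.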

How the results depend on the processing

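No paired analysis was possible because the labels identify no mouse and each group holds 1 library; leaving out a library leaves no residual degree of freedom. Fitted with no floor, limma called 0 members lower in DNAM-1+ cells, in place of 5; the cause was not tested. With a floor of 20 FPKM it called 3 of the 3 members left, since fewer genes enter. All other alternatives called 5 (4 without Lyz1, an alternative chosen after seeing the data). With a floor of 1 FPKM these were 5 of 6 members tested, and Cd14 was not called. None of the alternatives called a member higher in DNAM-1+ cells or changed in AML spleen. The median log2 ratio of the members at 1 FPKM or more stayed negative in both spleens, from -2.86 to -1.36 in normal, the latter with a pseudocount of 5 FPKM, and from -2.14 to -1.29 in AML spleen. The range of log2 ratios among members was 2.46 in normal spleen and 1.6 in AML spleen. It was 1.32 in normal spleen over members at 5 FPKM or more, 0.75 in AML spleen with a pseudocount of 0.1 FPKM and 2.52 there over all 8 members, also chosen after seeing the data. Over all genes, limma called 667 higher and 760 lower in DNAM-1+ cells. Without the mean-variance trend it called 321 and 561, with a floor of 20 FPKM 523 and 434, and with no floor 0 and 0 (3425 had an unadjusted p below 0.05). For AML spleen it called 6 higher and 26 lower, against 16 and 62 with median-ratio scaling, 26 and 81 over protein-coding genes, 18 and 51 with a floor of 20 FPKM, 4 and 5 with a floor of 1 FPKM, 5 and 17 with a pseudocount of 5 FPKM, 1 and 4 without the trend and 0 and 0 with no floor (1269 unadjusted). No member of the main fit changed direction in the other limma fits, and direction was not checked over all genes. Depth limits Cd14, F13a1 and Vcan, whose counting intervals are wide.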
